A study of Mus musculus and Homo sapiens with 9 samples.

Results

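CUT&Tag peaks of FLAG-tagged MCM8 in HEK293 cells, a line derived from human embryonic kidney, were compared with the peaks of a mouse IgG control. In CUT&Tag an antibody guides a transposase to the chromatin it binds, and the DNA tagged there is sequenced. A FLAG-MCM8 peak and an IgG peak were taken as shared when they overlapped by 1 bp or more on an assembled chromosome of hg38, and the remaining peaks are named FLAG-only and IgG-only. Of 13295 FLAG-MCM8 peaks, 12629 were FLAG-only and 666 shared, and of 17178 IgG peaks, 16515 were IgG-only. The FLAG-MCM8 library came from cells with a wildtype genotype that had received a FLAG-MCM8 plasmid and were treated with an anti-FLAG antibody. The IgG library came from wildtype cells for which no transfection is given, so the antibody, the transfection and the extra MCM8 differ together and cannot be told apart. The tagged protein was expressed from a plasmid beside the cells' own MCM8. Both are single libraries of a series of 9. No p-value was therefore computed, and all 95% intervals below cover counting error alone.

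MCM8 belongs to the minichromosome maintenance family of DNA helicases. Its relatives MCM2 to MCM7 form the ring that unwinds DNA at replication forks, whereas MCM8 acts with MCM9 and their loader HROB in homologous recombination and at stressed forks. In an R-loop a transcript is hybridised to its template DNA and the partner strand is left single. R-loops are common at the start sites of active genes, and helicases such as DDX5 and DHX9 resolve them. The comparison with IgG asks which of the FLAG-MCM8 sites are found where a nonspecific antibody gives no peak.

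The DNA beneath the FLAG-only sites was of several kinds, and examples of each are shown so that the values can be read against the sequence. All are hg38, plus strand unless stated. The first 4 are 101 bp windows centred on FLAG-only summits at gene starts, with every CpG dinucleotide in capitals. KPNB1 encodes importin beta, KDM3A a histone H3 lysine 9 demethylase, GMNN the licensing inhibitor geminin and CDK4 a G1 cyclin-dependent kinase.
KPNB1, chr17:47649585-47649685: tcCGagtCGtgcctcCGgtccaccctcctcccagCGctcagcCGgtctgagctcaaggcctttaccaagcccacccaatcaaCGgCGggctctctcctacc
KDM3A, chr2:86440834-86440934: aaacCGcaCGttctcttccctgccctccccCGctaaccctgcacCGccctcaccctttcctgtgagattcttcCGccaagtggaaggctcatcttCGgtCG
GMNN, chr6:24775037-24775137: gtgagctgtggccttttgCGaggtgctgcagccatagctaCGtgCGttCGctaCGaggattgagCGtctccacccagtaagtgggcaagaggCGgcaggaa
CDK4, chr12:57752575-57752675: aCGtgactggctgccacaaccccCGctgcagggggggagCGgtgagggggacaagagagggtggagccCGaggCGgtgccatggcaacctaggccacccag
The next windows are the summits of FLAG-only sites more than 1 kb from a start site in which a short sequence is repeated head to tail. Capitals mark 1 period, the shift at which most bases match.
Between genes, chr1:236097213-236097313: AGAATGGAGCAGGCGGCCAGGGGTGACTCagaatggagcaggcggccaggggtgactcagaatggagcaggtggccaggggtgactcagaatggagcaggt
SPAST intron, chr2:32110924-32111024: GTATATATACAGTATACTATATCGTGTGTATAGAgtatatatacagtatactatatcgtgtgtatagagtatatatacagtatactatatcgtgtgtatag
The pair below comes from the 2 strongest shared sites and is marked in the same way. A period can be a multiple of a shorter unit, as in the first of the pair.
Between genes, chr16:1025354-1025454: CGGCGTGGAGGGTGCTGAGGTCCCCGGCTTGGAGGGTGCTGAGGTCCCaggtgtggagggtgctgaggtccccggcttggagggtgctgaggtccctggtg
SERINC2 intron, chr1:31431973-31432073: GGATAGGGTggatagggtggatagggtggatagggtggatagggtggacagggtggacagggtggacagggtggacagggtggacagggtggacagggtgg
The last pair shows the starts of 2 genes for the U1 small nuclear RNA, which recognises 5′ splice sites, on the minus strand, with the 70 bases before the gene in lower case and its first 30 bases in capitals.
RNU1-1, chr1:16514256-16514355: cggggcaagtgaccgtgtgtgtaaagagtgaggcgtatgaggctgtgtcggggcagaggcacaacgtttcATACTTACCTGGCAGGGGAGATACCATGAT
RNU1-3, chr1:16666919-16667018: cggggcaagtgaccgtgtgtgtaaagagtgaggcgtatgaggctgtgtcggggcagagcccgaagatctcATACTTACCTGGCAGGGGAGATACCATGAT

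Sharing with IgG was rare overall but common among the strongest sites. An IgG peak lay over 5.01% (95% interval 4.65 to 5.39) of the FLAG-MCM8 peaks. The FLAG-MCM8 list was divided by −log10 p into 4 strength classes of 25% each. From the weakest class to the strongest, the shared share was 1.93%, 3.10%, 4.03% and 10.98%. Of the 100 strongest FLAG-MCM8 peaks 54 were shared, and of the 20 strongest 14 were. Seen from the control, 3.86% of IgG peaks were shared, rising to 61 of the strongest 100. The 1 bp limit decided few sites: 44 shared FLAG-MCM8 peaks overlapped by 50 bp or less, 32 FLAG-only peaks lay 50 bp or less from an IgG peak, and 12310 lay more than 1000 bp from one. Just inside the limit was a peak on chromosome 6 from 27132471 to 27132900 with 2 bp in common (fold 5.87, −log10 q 8.17), and just outside it a peak on chromosome 1 from 194923991 to 194924253 with a gap of 1 bp (fold 5.33, −log10 q 5.36).

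Most FLAG-only sites were weak. The fold of a peak is its fragment pileup at the summit over the local background, each with 1 added. The median FLAG-only fold was 4.62 (quartiles 4.27 and 5.33), with a median −log10 q of 4.60 and a median pileup of 14 fragments (quartiles 12 and 16) over a background of 1.90. Shared FLAG-MCM8 peaks were stronger, with a median fold of 5.21, a median −log10 q of 6.17 and a median pileup of 17.5. They were also broader, at a median of 381 bp against 297 bp for FLAG-only. In the FLAG-MCM8 list 525 peaks reached a −log10 q of 10 and 64 reached 20. The lists differed in depth, with 8314 fragments per Mb solved for FLAG-MCM8 and 10923 for IgG. At the lowest background, the weakest FLAG-MCM8 peak had a pileup of 10 and a fold of 3.91, and the weakest IgG peak a pileup of 14 and a fold of 3.45. A site with an IgG enrichment below that floor would thus be counted as FLAG-only, and folds were not compared peak by peak between the lists.

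FLAG-only sites lay at promoters more often than IgG-only sites. The midpoint was within 1 kb of a transcription start site (TSS) for 2695 of 12629 FLAG-only peaks, or 21.3% (20.6 to 22.1), and for 1625 of 16515 IgG-only peaks, or 9.84% (9.39 to 10.3). The difference was 11.5 percentage points (10.7 to 12.3). Positions taken every 1 kb along the genome fell at a promoter in 7.19% of cases. Introns held 36.7% of FLAG-only against 42.9% of IgG-only peaks, a difference of -6.13 points (-7.26 to -5.00), and the space between genes held 25.3% against 31.6%, a difference of -6.26 points (-7.30 to -5.22). Coding exons held 132 FLAG-only peaks, 1.05% against 0.636% for IgG-only, a difference of 0.409 points (0.199 to 0.632). For the band from 1 to 3 kb around a TSS (11.8% and 11.5%) and for 3′ UTRs (1.01% and 0.854%) the interval of the difference included 0.

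**Figure D1:**
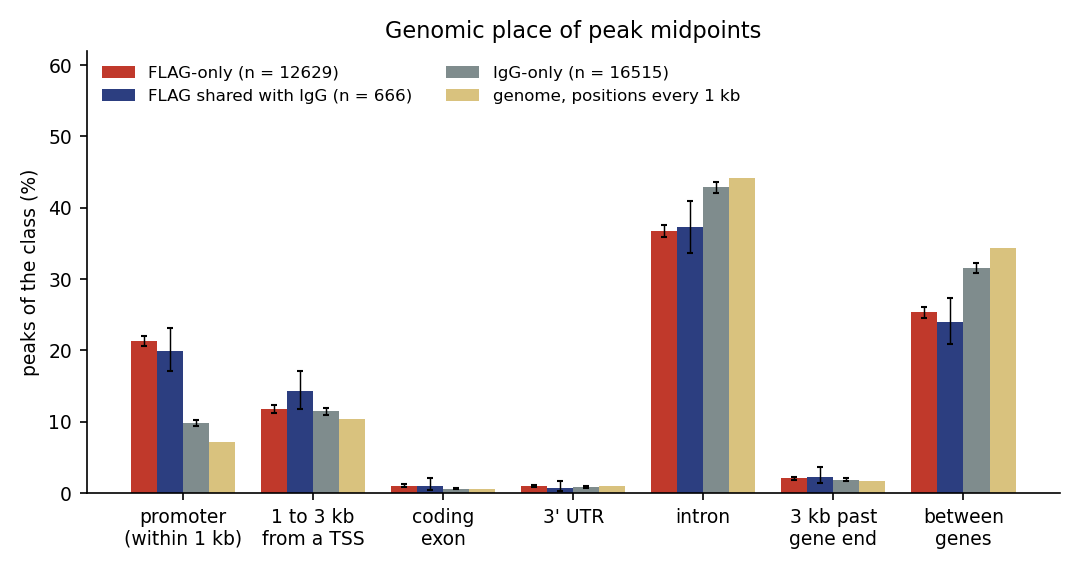
Share of peaks (%) whose midpoint falls in each genomic place, for FLAG-only, shared FLAG-MCM8 and IgG-only peaks, with 95% Wilson intervals as error bars, beside positions every 1 kb of hg38. At promoters FLAG-only stands at 21.3% and shared at 19.97%, above IgG-only at 9.84% and the genome at 7.19%.

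Shared FLAG-MCM8 peaks were at promoters in 19.97% of cases (133 of 666), a difference of -1.37 points from FLAG-only (-4.32 to 1.91). The sites that also carried an IgG peak were thus not told apart from the FLAG-only sites by this share. With a −log10 q of 5 or more required in both lists the difference became -9.13 points (-12.97 to -4.68).

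Around the TSS the FLAG-only summits were concentrated close to the start itself. Within 200 bp of a TSS lay 9.74% of FLAG-only summits (9.23 to 10.3), 2.77% of IgG-only summits (2.53 to 3.03) and 8.86% of shared summits (6.93 to 11.3). The 200 bp bin just downstream of the TSS held 5.28% of FLAG-only peaks and the bin just upstream 4.45%, against 1.49% and 1.28% for IgG-only. Over the wider 1 kb, 11.6% of FLAG-only summits were downstream and 9.74% upstream. At the other extreme, 3.68% of FLAG-only and 6.09% of IgG-only midpoints were more than 100 kb from any TSS, and the median distance was 7591 bp against 12165 bp.

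**Figure D2:**
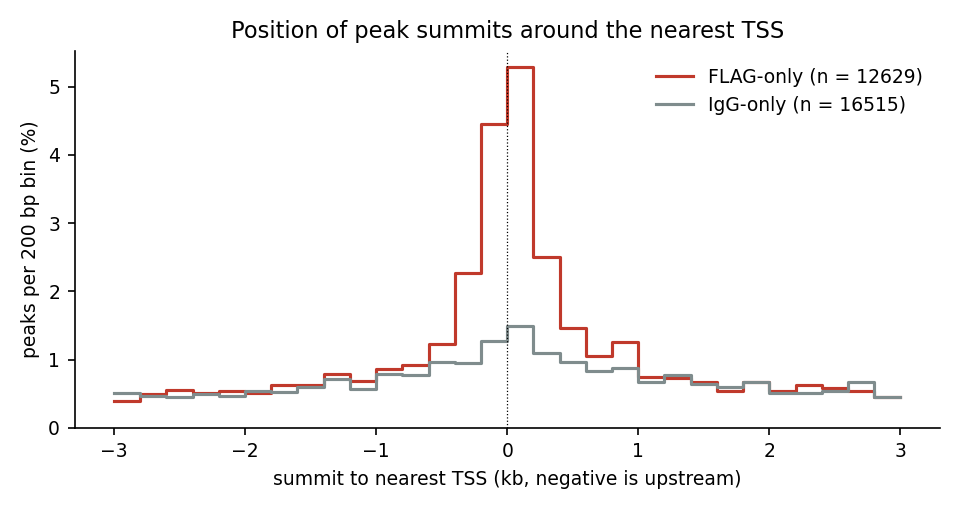
Share of peaks (%) whose summit falls in each 200 bp bin from 3 kb upstream to 3 kb downstream of the nearest TSS, for FLAG-only and IgG-only peaks. The FLAG-only curve reaches 5.28% just downstream of the TSS, where the IgG-only curve reaches 1.49%.

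The promoter share rose with the strength of FLAG-only sites and was level in IgG. From the weakest to the strongest class it was 16.1%, 18.9%, 20.7% and 30.4% of FLAG-only peaks, a difference of 14.3 points (12.3 to 16.4) between the last and the first. The same classes of IgG-only peaks gave 9.63%, 9.91%, 9.27% and 10.6%, a difference of 0.956 points (-0.351 to 2.27). Of the 100 strongest FLAG-only peaks 52 were at a promoter, and of the 100 strongest IgG-only peaks 13 were.

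Tandem repeats formed a second, small class that was most frequent among the strongest peaks of each list. A summit window of 301 bp was taken as a tandem repeat when at least 80% of its bases equalled the base 1 period further on, for some period from 2 to 100 bp. This held for 148 FLAG-only peaks, or 1.17% (0.999 to 1.38), for 67 IgG-only peaks, or 0.406% (0.320 to 0.515), and for 0.133% of windows placed every 20 kb along the genome. Shared FLAG-MCM8 peaks reached 12.2% (81 of 666, 9.89 to 14.9), 11.0 points above FLAG-only (8.71 to 13.7). From the weakest to the strongest class the FLAG-only repeat share was 0.552%, 0.900%, 0.627% and 2.74%, a difference of 2.19 points (1.57 to 2.87) between the last and the first. The IgG-only share also rose, from 0.166% to 0.808%, a difference of 0.642 points (0.349 to 0.984). In the strongest class of shared peaks it was 17.5%. Repeats made up 18 of the 100 strongest FLAG-only peaks and 37 of the 100 strongest shared peaks. The median best-matching period of the 148 FLAG-only repeats was 40.5 bp, and 4 had a period of 10 bp or less. Such a period can be a multiple of a shorter unit and is not a unit length. Only 8 of these 148 were at a promoter. With promoters and tandem repeats counted together, 70 of the 100 strongest FLAG-only peaks were in one of the classes, against 18 of the 100 strongest IgG-only peaks. How reads were placed among repeat copies is not given in the sources used here, and its part in these values was not tested.

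**Figure D3:**
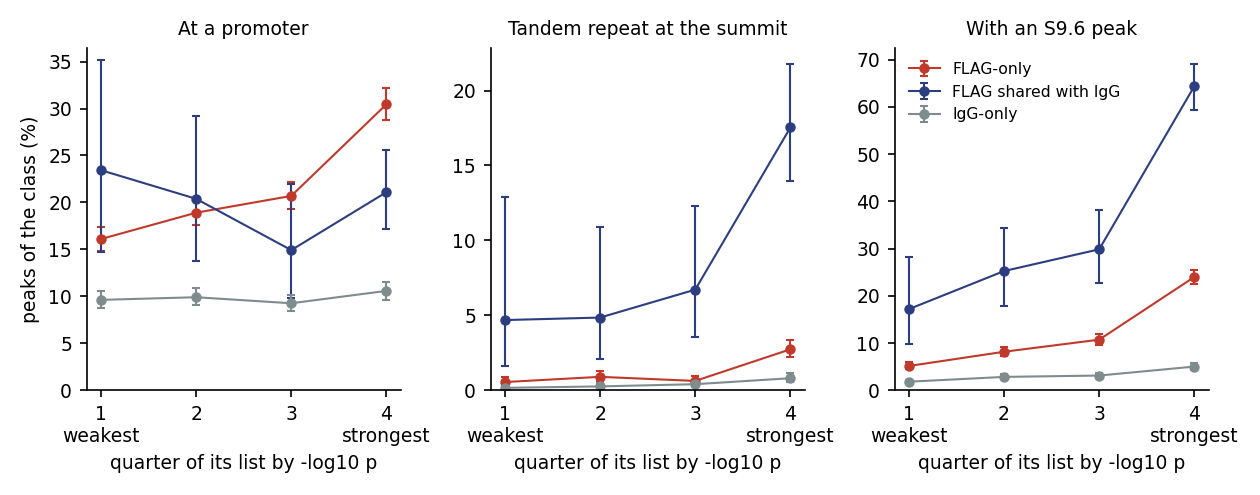
Share of peaks (%) at a promoter, with a tandem repeat at the summit and with an S9.6 peak, by strength class (25% of the peak's own list each) from the weakest to the strongest −log10 p, with 95% Wilson intervals. The FLAG-only promoter share climbs from 16.1% to 30.4%, IgG-only stays between 9.27% and 10.6%, and shared peaks lead in tandem repeats with 17.5% in the strongest class.

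Base composition followed the same division. The median GC content of the 301 bp window was 60.8% at FLAG-only promoter sites and 52.2% at IgG-only promoter sites, with a median of 13 and 5 CpG dinucleotides. Away from promoters it was 49.5% and 45.2%, with 3 and 2 CpGs, while windows every 20 kb along the genome had 39.9% and 2. Over all sites the FLAG-only median was 5.98 points above the IgG-only one. A window with at least 50% GC and an observed to expected CpG ratio of at least 0.6 was counted as CpG-rich, and this applied to 43.2% of FLAG-only promoter sites (41.3 to 45.0), 12.9% of IgG-only promoter sites (11.4 to 14.6) and 59.4% of protein-coding gene starts, taken at the most upstream TSS of each gene. The windows of KPNB1 and KDM3A shown above are of this kind, with 26 and 21 CpGs in 301 bp.

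The difference at promoters was also seen among sites of like GC content, though not at the AT-rich end. Below 40% GC, 4.86% of FLAG-only and 4.54% of IgG-only peaks were at a promoter, a difference of 0.322 points (-0.818 to 1.60). From 50% to 60% GC the shares were 18.3% and 12.3%, a difference of 5.94 points (4.42 to 7.45). From 60% to 70% they were 48.8% and 31.0%, a difference of 17.7 points (14.3 to 21.1). At 70% and above, 401 of 517 FLAG-only peaks and 68 of 118 IgG-only peaks were at a promoter, a difference of 19.9 points (10.6 to 29.6).

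Short motifs were counted in the 301 bp windows on both strands. The GC box GGGCGG, the core bound by SP1-type factors, was found in 42.7% of FLAG-only promoter windows, 16.9% of IgG-only promoter windows, 54.4% of windows at the most upstream TSS of each protein-coding gene and 4.02% of genome windows. Guanine runs that could form a G-quadruplex (4 runs of at least 3 G, 1 to 7 bases apart, which may overlap a GC box) were found in 23.9%, 11.5%, 29.6% and 3.12%. TATAAA, the TATA box, was found in 5.71%, 11.9%, 9.20% and 29.8%. The ETS site CCGGAAGT was in 2.34%, 0.431%, 5.15% and 0.123%, the AP-1 site TGACTCA in 4.79%, 3.82%, 3.93% and 4.50%, and the E-box CACGTG in 7.31%, 5.85%, 7.80% and 2.80%. No motif of the 6 was more frequent at FLAG-only promoters than at these gene starts apart from TGACTCA. Its intervals, 4.04 to 5.66 at FLAG-only promoters and 3.67 to 4.21 at gene starts, overlapped. That overlap does not decide whether the 2 shares differ. A match describes the letters in a window and not a bound factor.

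A FLAG-only peak lay at a promoter of 2311 of 20033 protein-coding genes, or 11.5%, and an IgG-only peak at 1015, or 5.07%. Both kinds were found at 147 genes. Over all 20033 genes, 107 had a shared FLAG-MCM8 peak. Taking the strongest FLAG-only promoter peak of each gene, and counting a peak that serves several genes once, gave 1999 peaks with a median fold of 4.97 (quartiles 4.30 and 5.67), and 41.2% of them overlapped an S9.6 peak. S9.6 is an antibody to RNA-DNA hybrids, and its HEK293 list was used for this crossing. For long non-coding RNA genes the shares were 3.96% and 2.08%. For processed pseudogenes the order was the other way, at 0.956% FLAG-only and 1.35% IgG-only.

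The strongest FLAG-only promoter sites belonged to genes of several functions. FOXK2, a forkhead transcription factor, had the highest, in an intron 238 bp from a TSS, on chromosome 17 from 82586218 to 82586517 (fold 13.4, −log10 q 49.8, pileup 64 over a background of 3.85). Its window was partly repetitive, with 64.3% of bases matching at a period of 49 bp, below the limit for a tandem repeat. GNB5, a G protein beta subunit, followed with a fold of 13.1 and a −log10 q of 29.7 in an intron 134 bp from a TSS (chromosome 15, 52135864 to 52136098), with no S9.6 peak. The next site, 474 bp from a CROCC start, lay nearest to the U1 gene RNU1-4 (fold 7.72, −log10 q 24.9). KDM3A had a fold of 10.5 (−log10 q 24.4; chromosome 2, 86440760 to 86441229) and KPNB1 a fold of 8.75 (−log10 q 21.8; chromosome 17, 47649440 to 47649919), each with its midpoint less than 200 bp from a TSS. ENSA, a regulator of the phosphatase PP2A in mitosis, had a fold of 9.36 over its first coding exon (chromosome 1, 150629215 to 150629698). AFF4, a scaffold of the super elongation complex, had a fold of 10.3 at a site whose nearest TSS was that of AFF4-DT. KHSRP, an RNA-binding protein of mRNA decay and splicing, had a fold of 8.22. ZNF687, a zinc finger gene, had a fold of 7.38 and the mitochondrial transporter gene ABCB8 one of 8.59. Of these 10 sites, 9 overlapped an S9.6 peak, and no window passed the tandem repeat limit. The 10 were chosen by strength, and of the 100 strongest FLAG-only peaks 72 overlapped an S9.6 peak.

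Of 54 genes that act in DNA replication, 11 (20.4%, interval 11.8 to 32.9) carried a FLAG-only promoter peak, against 11.5% of all protein-coding genes. An IgG-only peak was found at 2 of the 54. At a −log10 q of at least 5 the share was 11.1% (5.19 to 22.2) against 6.15%. With only the most upstream TSS of each gene it was 13% (6.42 to 24.4) against 7.27%. Both of these intervals included the share of all genes. GMNN, which keeps the licensing factor CDT1 in check, had the strongest FLAG-only peak of the list, at chromosome 6 from 24774988 to 24775586 (fold 8.15, −log10 q 13.0, pileup 22 over 1.82). The sliding clamp gene PCNA had a fold of 7.503 in its first exon, 71 bp from the TSS, and the helicase subunit gene MCM7 one of 7.31. MCM2, MCM4, CDC45, ORC6, POLD3, POLE4, RECQL4 and TIMELESS were the other members, and folds in the list ranged from 3.73 to 8.15. Of the 11 peaks 5 overlapped an S9.6 peak.

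The mitotic cell cycle list had 14 of 65 genes with a FLAG-only promoter peak (21.5%, interval 13.3 to 33.0) and 3 with an IgG-only one. At a −log10 q of at least 5 the FLAG-only share was 13.8% (7.46 to 24.3) against 6.15% of all genes. With only the most upstream TSS of each gene it was 10.8% (5.3 to 20.6), an interval that included the 7.27% of all genes. CKS1B, a small subunit of cyclin-dependent kinases, led with a fold of 7.52 (−log10 q 16.1), 10 bp from its TSS. The cullin gene CUL1, the scaffold of SCF ubiquitin ligases, followed with a fold of 7.82 (−log10 q 11.9). CDK4 followed, at chromosome 12 from 57752326 to 57753102 (fold 5.18, −log10 q 9.24, pileup 27 over 4.41). WEE1 and PKMYT1, the kinases that restrain CDK1, were among the others, as were E2F3, E2F8, CDC25B, CDKN2C, CDKN2D, ANAPC5, ANAPC7, FBXO4 and USP37. An S9.6 peak overlapped 12 of the 14.

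Splicing factors and hnRNPs had the highest share of the 13 lists of protein-coding genes, with 23 of 74 genes (31.1%), and 4 with an IgG-only peak. SRSF1, a serine/arginine-rich splicing factor, had a fold of 9.17 (−log10 q 18.9; chromosome 17, 58007257 to 58007738) without an S9.6 peak. PRPF31, a U4/U6 snRNP protein, had a fold of 7.31, and HNRNPL, a CA-repeat binding hnRNP, one of 6.13, both with an S9.6 peak. A further group were hnRNP genes: HNRNPA0, HNRNPA2B1, HNRNPAB, HNRNPD, HNRNPF, HNRNPH3, HNRNPK, HNRNPR, HNRNPU and HNRNPUL2. The median fold of the 23 peaks was 5.73, beside 4.97 over the 1999 strongest peaks of all protein-coding genes, and 16 overlapped an S9.6 peak.

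The remaining lists varied. DEAD and DEAH box RNA helicases had 12 of 54 (22.2%) but also 7 with an IgG-only peak, and were led by DDX59 (fold 8.31) and DDX21 (fold 6.71). Homologous recombination and Fanconi genes, the repair pathway of MCM8 itself, had 6 of 41 (14.6%) beside 5 with an IgG-only peak: FANCL (fold 7.82), BLM (fold 7.003), RAD54L (fold 5.33), BRCA1, FANCA and MRE11. Of these, FANCA and RAD54L had a FLAG-only and an IgG-only peak. R-loop factors had 4 of 25 (16.0%) beside 3 with an IgG-only peak, among them DDX5, which had both. The IgG-only peak of DDX5 counted here and among the 7 helicases lay over its exon 7, near a TSS inside the gene, and is described with the other DDX5 signal of the control below. Replication-dependent histone genes had 10 of 69 (14.5%) over 7 peaks, since neighbouring histone genes share a promoter, as at H2AC25 and H2BC26 (fold 6.06). Ribosomal protein genes had 10 of 84 (11.9%), led by RPL26L1 and RPS10 (fold 5.52 each). Immediate-early genes had 5 of 20 (25%) with 0 IgG-only, among them FOSL2 (fold 6.78) and JUN (fold 5.15). Of all protein-coding genes 11.5% had a FLAG-only and 5.07% an IgG-only promoter peak. The counting interval of the helicase list (13.2 to 34.94) lay above that 11.5%. The intervals of the recombination (6.884 to 28.44), R-loop factor (6.403 to 34.65) and histone lists (8.067 to 24.66) included it. So did those of the ribosomal protein (6.597 to 20.54) and immediate-early lists (11.19 to 46.87). Lists whose interval included it were thus not told apart from all genes. For the helicases at a −log10 q of at least 5, the share was 11.1% (5.19 to 22.2), an interval that included the 6.15% of all genes. With only the most upstream TSS it was 14.8% (7.70 to 26.6) against 7.27%, and with 3 kb 25.9% (16.1 to 38.9) against 15.9%. The IgG-only share of the helicases, 13.0%, was also above the 5.07% of all genes.

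Olfactory receptor, keratin, HOX and ZNF genes had shares below that of all genes. Olfactory receptor genes had 8 of 415 (1.93%) and keratin genes 2 of 149 (1.34%), beside 4 and 6 with an IgG-only peak, and 0 of these 10 FLAG-only peaks overlapped an S9.6 peak. The strongest olfactory one, at OR5B12, lay over a coding exon with 1 CpG in its window (fold 6.76). HOX genes had 2 of 39 (5.13%), with a counting interval of 1.42 to 16.9 that includes the 11.5% of all genes, and zinc finger ZNF genes 40 of 508 (7.87%). Peak lists hold no expression, so the HEK293 identity of the cells was not checked by markers.

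**Figure D4:**
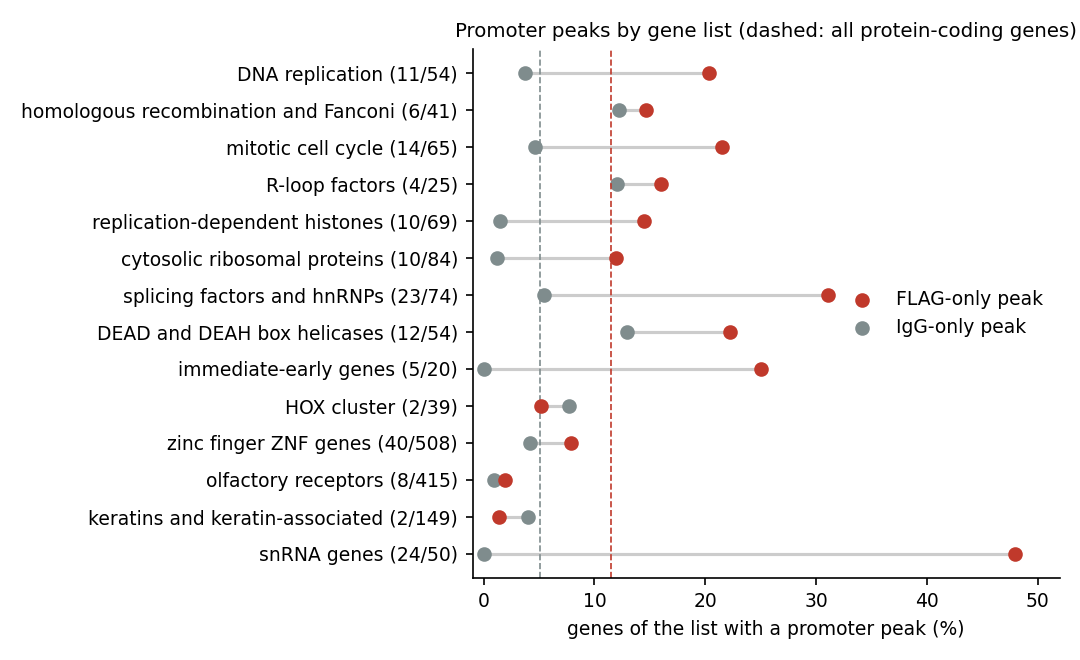
Share of the genes in each list (%) with a FLAG-only or an IgG-only peak within 1 kb of a TSS, with the FLAG-only count and list size in brackets; dashed lines mark all protein-coding genes, at 11.5% FLAG-only and 5.07% IgG-only. Splicing factors stand at 31.1% and the snRNA genes, a list chosen after its values were seen, at 48.0%.

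FLAG-only peaks at small nuclear RNA genes ranged from strong to weak. Across all 1901 annotated snRNA genes, which are mostly pseudogenes and scattered copies, 1.89% had a FLAG-only promoter peak and 0.894% an IgG-only one. Of the 50 that carry the symbols of functional copies or U1 variants, 24 had a FLAG-only peak, 0 an IgG-only peak and 2 a shared one (RNU1-2 and RNVU1-34, the latter beside a FLAG-only peak). This list was drawn up after its values had been seen and is a description. The U1 genes RNU1-1 (chromosome 1, 16513032 to 16514396, fold 8.16, −log10 q 33.0), RNU1-3 (16666211 to 16667427, fold 8.64, −log10 q 32.4) and RNU1-4 (16740121 to 16741372, fold 7.72, −log10 q 24.9) led it, with pileups of 61, 57 and 48. These peaks were 1217 to 1365 bp wide, against a FLAG-only median of 297 bp. The U5 genes RNU5B-1, RNU5D-1, RNU5E-1 and RNU5A-1 had folds of 7.82, 7.28, 6.53 and 5.41. RNU12 and RNU11 of the minor spliceosome had 6.99 and 4.67, RNU2-2P had 4.77 and RNU4-2 had 4.93. RNU7-1, whose product trims histone mRNA ends, had 3.24. The peaks of RNU12, RNU2-2P and RNU7-1 lay nearest to a TSS of another gene, WDR74 for RNU2-2P and C12orf57 for RNU7-1. The −log10 q of the 24 peaks ran from 33.0 at RNU1-1 to 2.68 at RNVU1-17, and 19 of them overlapped an S9.6 peak. Several of these genes are near-identical copies: over 300 bp around the start RNU1-3 and RNU1-4 were 100% identical, and RNU1-1 was 97.7% identical to each, so reads could be divided between copies and single genes are uncertain.

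Outside promoters, the 3 strongest FLAG-only peaks lay in MCM8 itself and had both ends close to coding exon edges. The first was on chromosome 20 from 5967426 to 5968037 (fold 21.6, pileup 4218 over 194). It began 10 bp and ended 12 bp from coding exon edges. Its position was annotated as intron, so these edges need not belong to the same exon. The others, from 5984789 to 5985006 over exon 15 (fold 11.1, pileup 5481) and from 5985914 to 5986132 over exon 16 (fold 10.2, pileup 5060), came within 8 bp of exon edges on both sides. The IgG list had 0 peaks at MCM8. The transfected plasmid carries MCM8, and its part in these peaks was not tested. Apart from MCM8, 6 FLAG-MCM8 peaks had both ends 20 bp or less from coding exon edges, with pileups of 10 to 29.

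The strongest remaining sites outside promoters were largely tandem repeats. The site between genes on chromosome 1 from 236097111 to 236097400 had a fold of 15.3 and a pileup of 110 over 6.27, and 96.7% of its window matched at a period of 29 bp. A site in an intron of CCDC183 had a fold of 8.46 with a period of 68 bp. One between genes, 4148 bp from an MMP8 TSS, had a fold of 10.9 with a period of 43 bp. One in an intron of SPAST, the gene for the microtubule-severing protein spastin, had a fold of 10.8 with a period of 34 bp. Of the 2 that did not pass the repeat limit, 1 lay between genes, 49456 bp from a PTGIS TSS (fold 10.7, 71.3% matching at 33 bp). The other was in an intron of LRIG2-DT (fold 11.4, 31.2% matching). Among the 5 strongest shared sites 4 were tandem repeats, with periods of 48, 9, 17 and 5 bp and folds of 21.6, 18.6, 10.7 and 14.2. The repeats shown in full above differ widely in base composition, and GC content over the 148 FLAG-only repeats ran from 14.0% to 81.7%.

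The strongest IgG-only peak lay on chromosome 17 from 63916679 to 63917311, with a fold of 18.1 and a pileup of 9658. It covered the last 112 bp of the growth hormone gene GH1 and 521 bp past its 3′ end, and the FLAG-MCM8 list had 0 peaks there. The next 2 were over DDX5, on chromosome 17 from 64499913 to 64500779 (fold 12.3, pileup 2641) and from 64502966 to 64503570 (fold 2.73, pileup 585). The first of these had both ends 13 bp or less from coding exon edges and was annotated as intron, like the first MCM8 peak of the FLAG-MCM8 list. The label of the IgG library names no plasmid.

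At DDX5 the FLAG-MCM8 list instead had a site at the gene start, on chromosome 17 from 64507012 to 64507369 (fold 6.16, −log10 q 7.94, pileup 18), which CEP95 shares as the gene of the nearest TSS. DHX9, the other R-loop helicase followed by the study, had 0 FLAG-MCM8 and 0 IgG peaks and 2 S9.6 peaks. HROB had 0 and 0 as well. MCM9, the partner of MCM8, had 1 FLAG-MCM8 peak, in an intron 31919 bp from a TSS and near the lower limit of the list (fold 3.70, −log10 q 2.52, pileup 10), and 1 IgG peak at another place (fold 5.30, pileup 22). CDK4 and GMNN had 1 FLAG-MCM8 peak each, 0 IgG peaks and 1 S9.6 peak each.

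FLAG-only sites within gene bodies were spread thinly. A FLAG-only midpoint lay in 4882 protein-coding genes (24.4%), 2 or more in 1343, and an IgG-only midpoint in 4900. The genes with most were long. PTPRN2, a receptor-type phosphatase of secretory granules that spans 1049 kb of chromosome 7, had 18 FLAG-only and 11 IgG-only peaks, or 1.72 and 1.05 per 100 kb. RBFOX1, a neuronal splicing regulator of 2474 kb, had 14 and 22, EYS had 11 and 7, and KAZN had 11 and 11. With counts this small, the order of the lists within a gene was not distinguished.

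The balance of FLAG-only to IgG-only sites varied by chromosome. Over the genome there were 0.765 FLAG-only peaks for each IgG-only peak (0.747 to 0.783). Chromosome 19, with 25.2 protein-coding genes per Mb, had the highest ratio, 1.08 (0.949 to 1.23), followed by chromosome 17 at 0.984 (0.874 to 1.11) and chromosome 16 at 0.938 (0.827 to 1.06). Chromosome X had the lowest, 0.519 (0.466 to 0.578), from 501 FLAG-only and 965 IgG-only peaks, and chromosome 13 followed at 0.556 (0.469 to 0.661). Chromosome X had 5.50 protein-coding genes per Mb, against 6.49 over the genome. Its FLAG-only promoter share was 14.6% beside 6.32% for IgG-only. The part of gene density in the ratios by chromosome was not tested. On each of the 22 autosomes and X the promoter share was higher in FLAG-only, from 11.9% on chromosome 13 to 47.6% on chromosome 19.

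**Figure D5:**
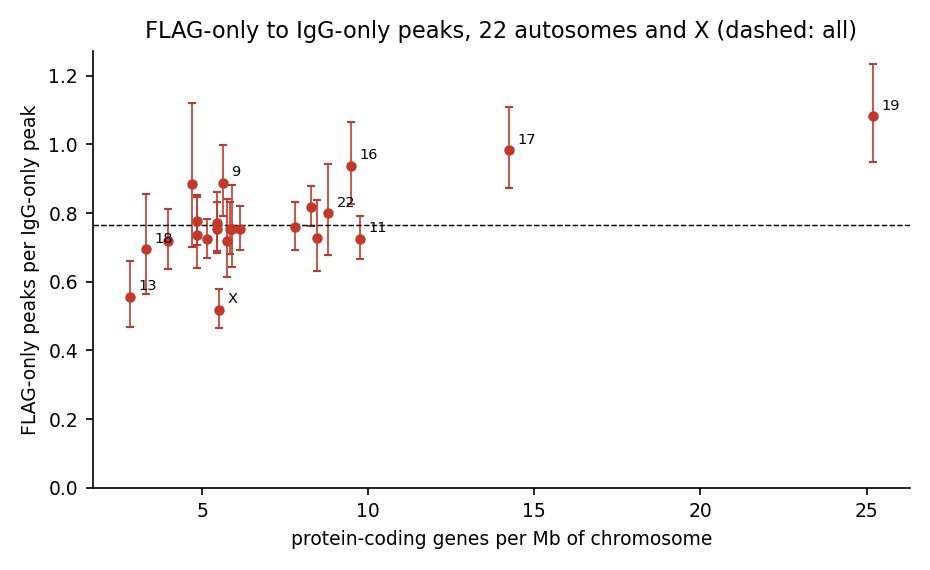
FLAG-only peaks per IgG-only peak against protein-coding genes per Mb for the 22 autosomes and X, with 95% intervals from the counts; the dashed line is the genome's 0.765. Chromosome 19 is highest at 1.08 and chromosomes X and 13 lowest at 0.519 and 0.556.

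Where S9.6 peaks were set on these sites, 11.7% of FLAG-only peaks (11.2 to 12.3), 3.18% of IgG-only peaks and 46.8% of shared FLAG-MCM8 peaks overlapped one. At promoters it was 35.4% of FLAG-only against 9.42% of IgG-only, a difference of 25.9 points (23.6 to 28.2). For shared FLAG-MCM8 peaks at promoters it was higher still, 66.2% (57.8 to 73.7). Among tandem repeats it was 66 of 148 FLAG-only peaks (44.6%) and 81.5% of shared FLAG-MCM8 peaks. Of the 100 strongest shared peaks 92 overlapped one, beside 72 of the 100 strongest FLAG-only peaks. The classes were not matched for strength. The overlap rose with strength, from the weakest to the strongest class at 5.15%, 8.17%, 10.7% and 24.0% of FLAG-only peaks. For IgG-only peaks it went from 1.83% to 5.03%. The overlap counts of the gene lists were not matched for strength. Beside them stand 41.2% of the 1999 strongest promoter peaks of protein-coding genes. The S9.6 list also holds the peak at MCM8 given below, whose bearing on these overlaps was not tested.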

How the data were processed

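Peak lists of the FLAG-MCM8, IgG and S9.6 libraries of HEK293 cells were used, 1 library per group. The authors trimmed reads with Trimmomatic, aligned them with Bowtie2 to hg38 and called peaks with MACS2 (2.1.2 in the submitters' processing notes, a later version in the study's methods). The methods select significant peaks by limits on fold change and p-value. The lowest deposited fold was 2.87 for FLAG-MCM8 and 2.04 for IgG, and the lowest −log10 p 5.01 and 5.02. Input and duplicate handling for HEK293 are not given in the sources used here. The deposited columns are fold enrichment (a ratio), −log10 p and −log10 q. Mitochondrial peaks (8 and 6) were left out. Pileup and background were solved from fold and p, exactly for 100% of peaks (tolerance 0.01), and fragments per Mb from the lowest background over the shortest peak, so depths are relative. Promoters were within 1 kb of a TSS of GENCODE 44; places were assigned in order from promoter to intergenic, by midpoint. Shares carry 95% Wilson intervals, differences Newcombe intervals. Overlaps, solving and repeat detection were tested on simulated data. Members, lists and tests were chosen with earlier results of these data known. Genes were named by rule: the 10 highest −log10 q FLAG-only peaks at and outside promoters, 5 shared, 5 IgG-only, fixed loci, 3 per list and the 5 gene bodies with most peaks; GH1 was added to the fixed loci, and list members beyond 3 are named after their values were seen, as was the snRNA list. A gene and a site that these rules name are not reported here. Python 3.11.15, pandas 2.3.3, scipy 1.17.1 and pysam 0.24.0 were used.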

Additional observations from a re-analysis of the deposited data

Results flagged for a closer look

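The S9.6 library of HEK293 cells, whose label names no plasmid, held 1 peak at MCM8, and it had the same start and end as the strongest FLAG-MCM8 peak, on chromosome 20 from 5967426 to 5968037. Its fold was 19.7 and its pileup 1141 over a background of 57.0, while the IgG control had 0 peaks at MCM8. It is listed here because it is a signal in a library outside the comparison with IgG that exceeds the control. The origin of this peak was not tested, and neither was the independence of the S9.6 list from the FLAG-MCM8 library. The S9.6 overlaps given above carry that limit. The S9.6 library had 0 peaks over MCM8 exons 15 and 16.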

How the results depend on the processing

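No paired analysis was possible because each group has 1 library, and for the same reason no replicate could be left out. The share of FLAG-MCM8 peaks with an IgG peak (5.01%) depended on the rule: 2.71% with 50% of both peaks in common, 7.41% with peaks within 1 kb, 3.56% with the FLAG summit inside an IgG peak, 7.07% at a −log10 q of at least 5, 3.41% at a fold of at least 4, 4.45% with equal numbers of strongest peaks, and 4.41% without tandem repeats and the MCM8, DDX5 and GH1 loci. At a −log10 q of at least 5 there were 4848 FLAG-only peaks, with 27.6% at promoters, 17.7 points above IgG-only, 1232 protein-coding genes, a GC difference of 7.31 points, and shared minus FLAG-only at -9.13 points. The FLAG-only promoter share was 16.1% with 500 bp, 33.2% with 3 kb and 16.7% with TSSs of protein-coding genes; its difference from IgG-only was 10.3 points with 500 bp, 10.6 with protein-coding TSSs and 12.7 at a fold of at least 4. With only the most upstream TSS of each gene, 1456 genes had a FLAG-only promoter peak. The promoter difference and the GC difference kept their direction in all 14 and 10 alternatives. Ribosomal protein genes fell below the share of all protein-coding genes in 2 of 3 alternatives and recombination genes in 1 of 3. The other 11 lists kept their side by share alone, and their counting intervals could still include the share of all genes. The cause of these shifts was not tested. The settings without chromosome X and without repeats were chosen after seeing the data. Depth limits weak sites: the median FLAG-only peak rests on 14 fragments.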
